A study of Mus musculus with 7 samples.

Results

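The genes described here are 54 members of the cell division programme and of the p53 response, found by symbol among 46603 gene rows of an RNA-seq experiment on TRAMP-C1 cells. They comprise 35 cell cycle genes (9 of replication licensing and the fork, 4 of nucleotide supply, 4 of G1 and the G1/S step, 18 of G2 and mitosis) and 19 p53 target genes (9 linked to arrest and feedback, 10 to apoptosis and survival). All 54 were matched, and all 54 passed the filter on low counts that left 16731 genes for testing. TRAMP-C1 is a mouse prostate tumour line of strain C57BL/6-TgN(TRAMP)8247Ng, and every library came from it. The 3 fusion libraries were from cells transduced with lentivirus (plasmid Lv229) carrying PAX8-NFE2L2, a fusion of the transcription factor PAX8 with NRF2, the regulator of antioxidant genes. The 3 empty vector libraries were from cells given the matching virus without the fusion, and RNA was taken after 12 h with virus and another 24 h in fresh medium. The single WT library has no vector named in its label and no replicate. Whether replicates were separate cultures is not stated in the labels. The p-values therefore speak only of how much these libraries varied, and that variation may be technical.

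In TRAMP mice the probasin promoter drives the SV40 T antigens in prostate epithelium, and large T antigen binds and blocks both RB and p53. TRAMP-C lines are described as no longer making T antigen in culture, and its level was not analysed here. RB holds back E2F factors, which turn on genes of DNA replication and nucleotide synthesis at the G1/S step, while genes of mitosis are switched on later through CHR elements (the cell cycle genes homology region) that the DREAM and MuvB complexes bind. p53 turns on genes that halt the cycle, such as Cdkn1a, genes that feed back on it, such as Mdm2, and genes of apoptosis, such as Bax and Bbc3.

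Promoter windows of 5 members follow, from RefSeq on build GRCm38.p6 and running from 250 bases before to 50 after a gene's start. They are shown for Mcm7 and Mcm3 (replication), Plk1 and Ccnb2 (mitosis) and Gadd45a (p53 target), since members of these lists moved together across libraries or, for Mcm7 and Gadd45a, differed between fusion and empty vector in the paired fit. Capitals mark E2F octamers and CHR hexamers in Mcm7, E2F octamers in Mcm3, CHR hexamers and CCAAT boxes in Plk1 and Ccnb2, and a CCAAT box and a p53 half-site in Gadd45a. The windows are chr5:138171834-138172133 (minus strand) for Mcm7, chr1:20820263-20820562 (minus) for Mcm3, chr7:122159185-122159484 (plus) for Plk1, chr9:70421505-70421804 (minus) for Ccnb2 and chr6:67037358-67037657 (minus) for Gadd45a, each 5′ to 3′ on the gene's strand.
Mcm7: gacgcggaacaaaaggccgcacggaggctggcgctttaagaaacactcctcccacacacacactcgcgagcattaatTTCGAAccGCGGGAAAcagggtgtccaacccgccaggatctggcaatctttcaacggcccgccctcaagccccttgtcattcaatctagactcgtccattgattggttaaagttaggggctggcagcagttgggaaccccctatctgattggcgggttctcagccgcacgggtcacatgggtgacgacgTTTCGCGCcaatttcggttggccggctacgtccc
Mcm3: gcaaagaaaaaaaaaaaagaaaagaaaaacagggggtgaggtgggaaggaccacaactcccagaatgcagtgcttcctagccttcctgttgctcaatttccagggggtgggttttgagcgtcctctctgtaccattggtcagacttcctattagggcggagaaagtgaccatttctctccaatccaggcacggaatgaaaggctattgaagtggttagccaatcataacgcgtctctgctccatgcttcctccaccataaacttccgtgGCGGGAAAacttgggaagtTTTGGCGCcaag
Plk1: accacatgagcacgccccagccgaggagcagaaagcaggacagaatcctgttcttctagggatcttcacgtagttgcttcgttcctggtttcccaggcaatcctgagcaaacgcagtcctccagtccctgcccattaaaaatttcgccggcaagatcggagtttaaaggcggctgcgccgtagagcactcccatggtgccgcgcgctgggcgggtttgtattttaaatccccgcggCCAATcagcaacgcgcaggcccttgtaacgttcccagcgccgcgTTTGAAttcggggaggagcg
Ccnb2: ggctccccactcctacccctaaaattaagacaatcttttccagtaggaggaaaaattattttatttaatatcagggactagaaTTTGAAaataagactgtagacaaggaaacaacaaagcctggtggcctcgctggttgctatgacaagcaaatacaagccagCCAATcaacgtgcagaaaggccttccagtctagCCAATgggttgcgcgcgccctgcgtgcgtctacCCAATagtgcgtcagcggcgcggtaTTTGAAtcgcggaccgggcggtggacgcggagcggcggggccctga
Gadd45a: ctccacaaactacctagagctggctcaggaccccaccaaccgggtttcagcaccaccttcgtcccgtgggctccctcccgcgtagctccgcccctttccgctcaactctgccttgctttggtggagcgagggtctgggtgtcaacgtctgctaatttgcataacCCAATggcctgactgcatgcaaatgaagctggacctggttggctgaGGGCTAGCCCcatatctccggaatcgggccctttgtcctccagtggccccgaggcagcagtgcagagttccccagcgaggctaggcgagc

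RefSeq windows were at hand for 43 of the 54 members (49 windows). The E2F octamers searched were TTTCCCGC, TTTCGCGC, TTTGCCGC and TTTGGCGC on both strands. Of 9 replication windows 6 held at least 1, against 2.26% of all 32851 promoter windows of the same length. None was found in the 4 nucleotide supply windows or the 2 windows of G1 and G1/S genes, and 1 of 14 windows of G2 and mitosis genes had a match. The CHR hexamers TTTGAA and TTCGAA (both strands) stood in 12 of 14 windows of G2 and mitosis genes, against 19.2% of all windows, and the CCAAT box in 13 of 14, against 37.4%. CCAAT boxes were also common in other lists, in 7 of 9 replication windows and 6 of 10 of arrest and feedback genes. They stood in 2 of 4 nucleotide supply windows, 4 of 10 of apoptosis and survival genes and 0 of 2 of G1 and G1/S genes. The p53 half-site was searched as RRRCWWGYYY (R for A or G, W for A or T, Y for C or T). It stood in 5 of 10 windows of arrest and feedback genes and 4 of 10 of apoptosis and survival genes, against 8.36% of all windows. The half-site was not confined to these lists. It was also found in 2 of 4 nucleotide supply windows and 2 of 14 windows of G2 and mitosis genes. Replication windows (0 of 9) and windows of G1 and G1/S genes (0 of 2) had none. The antioxidant response element that NRF2 binds, searched as TGACNNNGC on both strands, stood in 7 of 49 member windows (14.3%), against 12.4% of all windows. TTCGAA reads the same on both strands, as does the p53 half-site found in the Gadd45a window. Windows of 1 gene can overlap, and a match of letters is not a measured binding site.

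**Figure D1:**
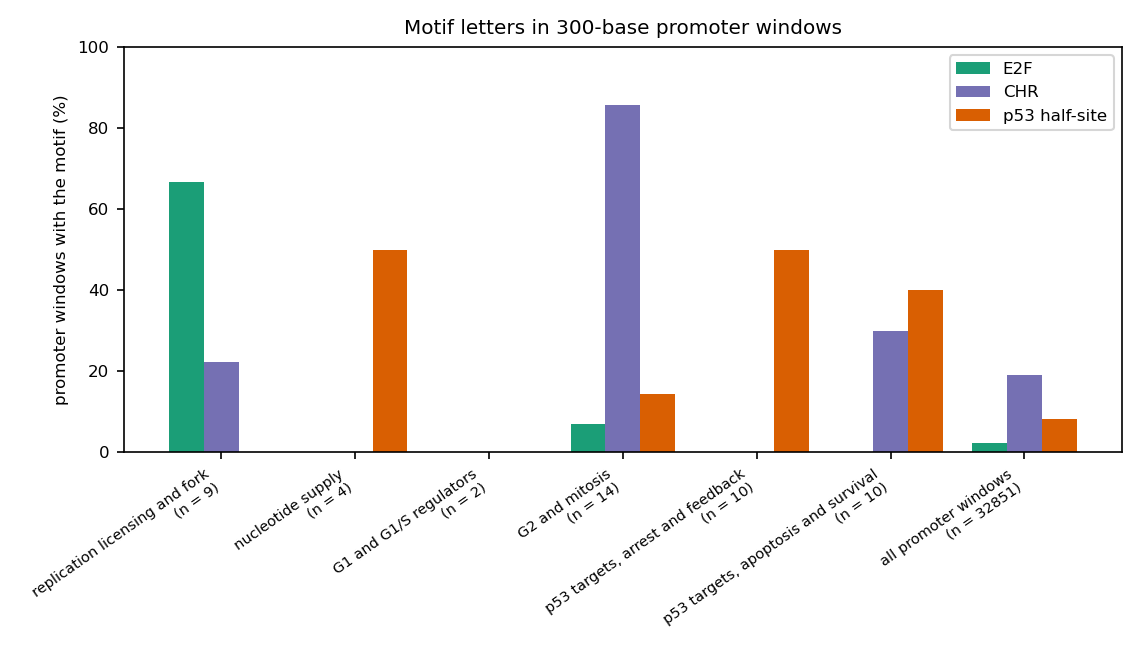
Share (%) of 300-base promoter windows that hold an E2F octamer, a CHR hexamer or a p53 half-site, by member list and, at the right, over all 32851 windows. E2F letters stood in 66.7% of replication windows and CHR letters in 85.7% of windows of G2 and mitosis genes, against 2.26% and 19.2% of all windows.

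Reads assigned to genes came to 26368182 to 55114667 in the fusion libraries, 40089266 to 59597170 in the empty vector libraries and 52859158 in the WT library. In Pax8 and Nqo1 the fusion libraries matched their label, while neither gene can check the empty vector label against WT. Pax8, the gene of the fusion's first part, lay at 5.57 to 8.53 CPM (counts scaled to a library of 1e+06) in fusion libraries, 0.0334 to 0.217 CPM in empty vector libraries and 0.0401 CPM in the WT library, and the NRF2 target Nqo1 at 230 to 343, 46.1 to 71.9 and 85.6 CPM in these groups. Both libraries numbered 3 stood apart. They came from sequencing lanes 2 (fusion) and 1 (empty vector) where the other 5 libraries came from lanes 5 and 6, and had 44.78% and 45.32% of reads with several alignments, against 36.1% to 38.89% in the others. The mitochondrial share of their gene counts was 6.139% (fusion) and 4.97% (empty vector), against 2.802% to 3.943% elsewhere. The part of lane or RNA quality in the results below was not tested, and values from lanes 5 and 6 alone, which leave out number 3, are given where they change a call or move a member's fold change by over 1.5 times. The labels call the cells prostate epithelial, yet the epithelial markers Epcam (0.0895 to 0.53 CPM) and Cdh1 (0.394 to 3.52 CPM, 22 to 94 reads) were low, and the probasin gene Pbsn (0 to 0.0748 CPM) was at 0 in 5 of the 7 libraries. Cdh1 was higher in every fusion library (1.34 to 3.52 CPM) than in any empty vector library (0.394 to 0.939 CPM). Some luminal markers not named here were so too, while others overlapped. The 9 luminal markers summed to 103 to 127 CPM in fusion, 81.4 to 106 CPM in empty vector and 146 CPM in WT cells. Most of this came from markers not named here. Fibroblast markers were abundant, with Col1a1 at 1580 to 4170 CPM, and their 7 genes summed to 9770 to 15200 CPM in fusion, 12600 to 18100 CPM in empty vector and 18800 CPM in WT cells. Of 6 immune markers 2 were at 0 in every library. The 6 summed to 0.934 to 1.6 CPM in fusion, 0.289 to 1.24 CPM in empty vector and 2.67 CPM in WT cells, mostly from Csf1r. In bulk RNA, fewer cells of a kind and less RNA per cell cannot be told apart.

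The members were expressed in every library, at 1.01 CPM (Pmaip1) to 663 CPM (Top2a). Scaled to exon length (CPM per kb), cyclin D1 (Ccnd1) had the highest mean level of the 54 in empty vector cells, at 75.1 CPM per kb, followed by the p53 target kinase Plk2 (72.4) and the DNA topoisomerase Top2a (60.6). The lowest were the p53 targets Eda2r, a TNF receptor family member (0.811 CPM per kb), Pmaip1, which encodes NOXA (1.04), and Fas, the death receptor (2.39). Cdkn1a, which encodes the CDK inhibitor p21, ranked 46 of 54 at 4.35 CPM per kb, and Mdm2, which encodes the ubiquitin ligase that degrades p53, ranked 33 at 14.8 CPM per kb.

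**Figure D2:**
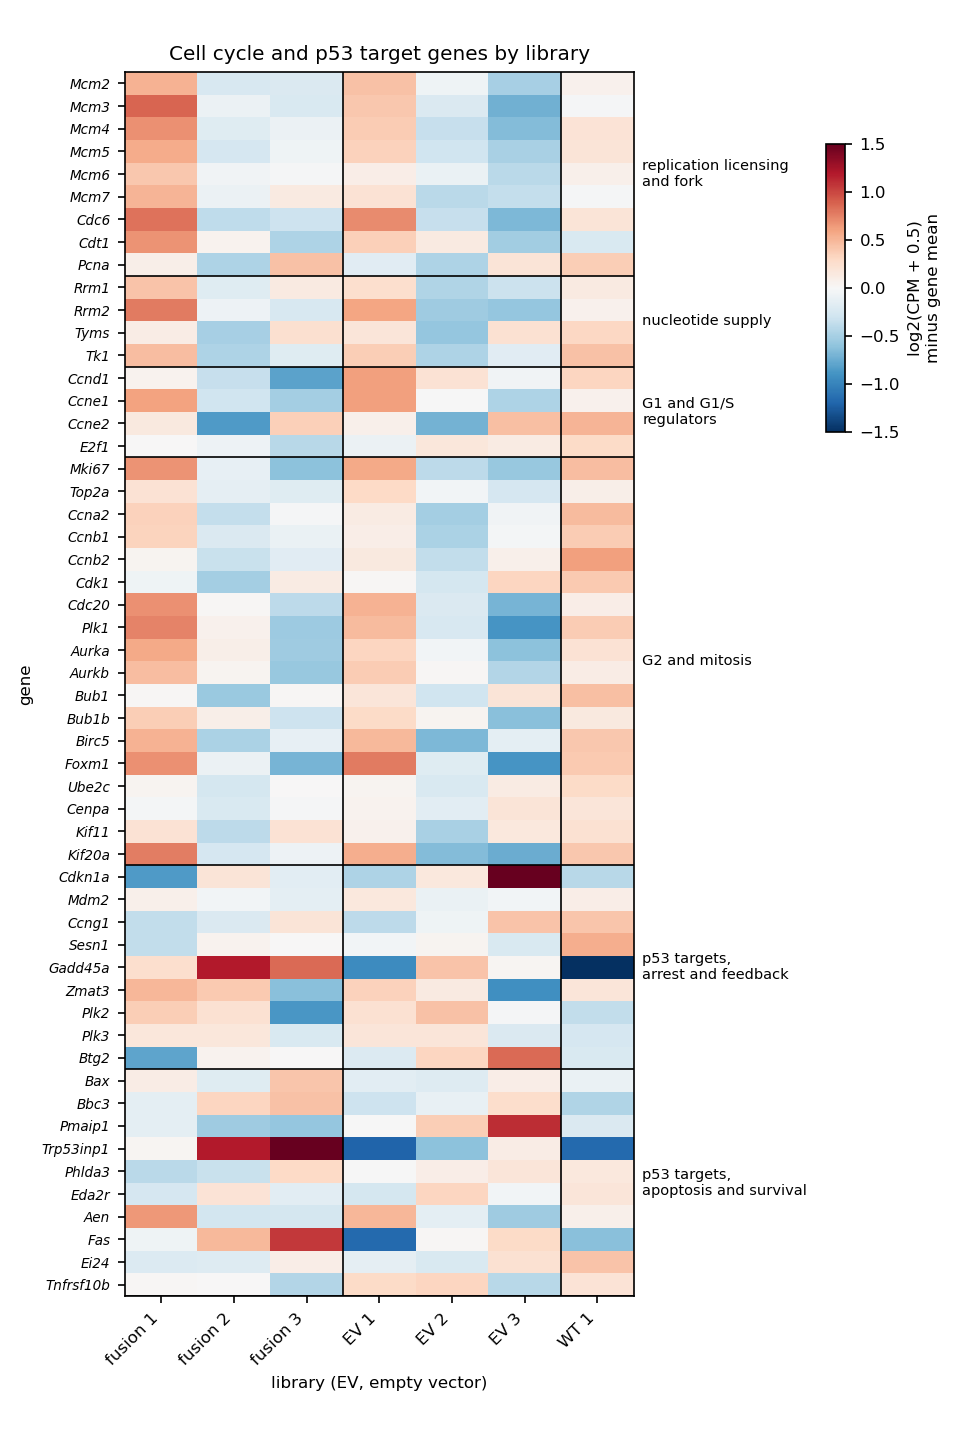
Level of each member in each library, as log2(CPM + 0.5) minus the gene's mean over the 7 libraries, with fusion libraries at the left, then empty vector (EV), then WT; colour ends at 1.5 either way. Most cell cycle rows are red in both libraries numbered 1, and Trp53inp1 and Gadd45a stand out among the p53 targets. Rows of G2 and mitosis are also mostly red in WT, with a median of 0.379 against 0.355 in fusion library 1 and 0.294 in empty vector library 1.

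The main comparison asked which of these genes differed between fusion and empty vector cells. Treating the 6 libraries as unpaired, none of the 54 members passed the edgeR quasi-likelihood test at an adjusted p of 0.05, while 2.04% of all tested genes did. At an unadjusted p under 0.05 there were 3 members, all p53 targets (Trp53inp1, Gadd45a and Pmaip1), or 5.56% of the 54 against 10.9% of all genes. DESeq2 called 1 of the 54, Trp53inp1, against 5.51% of all genes. Libraries of the same replicate number deviated together, so fusion and empty vector were also compared within numbers. With the number as a block 7 members passed: Fas, Gadd45a, Kif20a, Mcm7 and Trp53inp1 rose and Btg2 and Ccnd1 fell, 13% of the 54 against 13.1% of all genes tested (7.63% rose and 5.5% fell). The members' share was thus near that of all genes. The median log2 fold change was 0.12 over the cell cycle genes, -0.04 over the p53 targets and 0.01 over all genes in the unpaired fit. In that fit 47 of the 54 lay within 0.5 of 0 on the log2 scale, as did 12873 of the 16731 genes tested.

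The largest change among the members was in Trp53inp1 (ENSMUSG00000028211.10, chromosome 4:11156431-11174379), a p53 target whose protein enhances p53 activity and autophagy under stress. It lay at 32.1, 72.6 and 101 CPM in fusion libraries 1, 2 and 3, at 13.4, 20.4 and 34.2 CPM in empty vector libraries 1, 2 and 3, and at 13.8 CPM in the WT library. Fusion library 1 lay below empty vector library 3, so the groups overlapped, but within each number the fusion library was the higher. The unpaired log2 fold change was 1.59 (SE 0.47, edgeR adjusted p = 0.18), and it passed with the replicate block (1.55, SE 0.12, 95% interval 1.25 to 1.85, edgeR adjusted p = 0.0014) and with DESeq2 (1.58, adjusted p = 0.016).

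Gadd45a (ENSMUSG00000036390.7, chromosome 6:67035096-67037457), whose protein restrains the cycle after stress and DNA damage, lay at 68.7, 132 and 104 CPM in fusion libraries 1, 2 and 3 and at 29.8, 77.6 and 59.0 CPM in empty vector libraries 1, 2 and 3. Its WT level, 16.3 CPM, was below all 6. The groups overlapped only through fusion library 1. Unpaired, the log2 fold change was 0.88 (SE 0.38, edgeR adjusted p = 0.45), and with the block it passed at 0.93 (SE 0.11, 95% interval 0.67 to 1.19, edgeR adjusted p = 0.0043). Its promoter window, printed above, holds the letters of a single p53 half-site, as did 8.36% of all windows, and binding was not measured. Gadd45a is also known as a target of ATF4 and of other stress factors.

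Fas lay at 5.32, 8.02 and 12.2 CPM in fusion libraries 1, 2 and 3, at 2.21, 5.68 and 6.93 CPM in empty vector libraries 1, 2 and 3, and at 3.43 CPM in the WT library. The fusion library was again the higher within each number although the groups overlapped. The difference on the log2 scale was 0.78 (SE 0.47, edgeR adjusted p = 0.69), and 0.85 with the block (95% interval 0.40 to 1.31, edgeR adjusted p = 0.034).

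Btg2, an antiproliferative p53 target, lay at 12.0, 22 and 21.2 CPM in fusion libraries 1, 2 and 3, at 18.3, 26.7 and 38.4 CPM in empty vector libraries 1, 2 and 3, and at 18.0 CPM in the WT library. It was lower with the fusion within each number and fell in the paired fit, with a log2 fold change of -0.58 (95% interval -0.90 to -0.26, edgeR adjusted p = 0.037). Without the block the value was -0.60 (SE 0.34, edgeR adjusted p = 0.65). The p53 targets that passed in the paired fit therefore had both signs.

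The other p53 targets did not pass in either fit. Cdkn1a lay at 5.14, 11.1 and 8.57 CPM in fusion libraries 1, 2 and 3, at 6.87, 10.8 and 28.8 CPM in empty vector libraries 1, 2 and 3, and at 7.07 CPM in the WT library. Empty vector library 3 was far above the other 6, and the log2 fold change of -0.90 (SE 0.53, edgeR adjusted p = 0.68) had a 95% interval of -2.12 to 0.32. Without empty vector library 3 the value was -0.09, and in lanes 5 and 6 alone it was -0.11 (-0.17 with the block, against -0.70 with the block in all lanes). Mdm2 lay at 78.7, 72.9 and 67.7 CPM in fusion libraries 1, 2 and 3, at 83.6, 70.0 and 72.6 CPM in empty vector libraries 1, 2 and 3, and at 80.0 CPM in the WT library, an even level in all 7. The estimate was a log2 fold change of -0.04 (SE 0.18, edgeR adjusted p = 0.99), with a 95% interval of -0.23 to 0.15 in the paired fit.

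Pmaip1, whose BH3-only protein NOXA primes cells for apoptosis, was the only member for which every fusion library lay below every empty vector library (6.65% of all genes did so), and no member had all fusion libraries above (9.15% of all genes). It lay at 1.54, 1.06 and 1.01 CPM in fusion libraries 1, 2 and 3, at 1.74, 2.42 and 4.38 CPM in empty vector libraries 1, 2 and 3, and at 1.44 CPM in the WT library. This log2 fold change, -1.23 (SE 0.41), did not pass (edgeR adjusted p = 0.26, and 0.12 with the block). It passed only in the paired fit without number 1 of both groups, an alternative added after the data were seen. In lanes 5 and 6 alone the value was -0.66, and did not pass.

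The remaining p53 targets had small estimates, some with intervals too wide to exclude a larger difference. The pro-apoptotic Bax and Bbc3, which encodes PUMA, had paired log2 fold changes of 0.20 (95% interval -0.03 to 0.43) and 0.28 (-0.08 to 0.63), with the fusion library higher within all 3 numbers for both. Sesn1, an antioxidant and nutrient-sensing sestrin, had -0.04 (-0.33 to 0.26) and Ccng1, cyclin G1, -0.11 (-0.31 to 0.09). Plk2 ranged from 151 to 359 CPM in fusion and from 274 to 377 CPM in empty vector cells and had a wide paired interval, -0.81 to 0.19. The log2 fold changes of Zmat3, Plk3, Phlda3, Eda2r, Aen, Ei24 and Tnfrsf10b lay between -0.24 and 0.24 in the paired fit, none of them past the threshold. In all, the paired 95% interval lay within a 1.5-fold change either way for 11 of the 19 p53 targets. This held for 7943 of the 16731 genes tested.

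**Figure D3:**
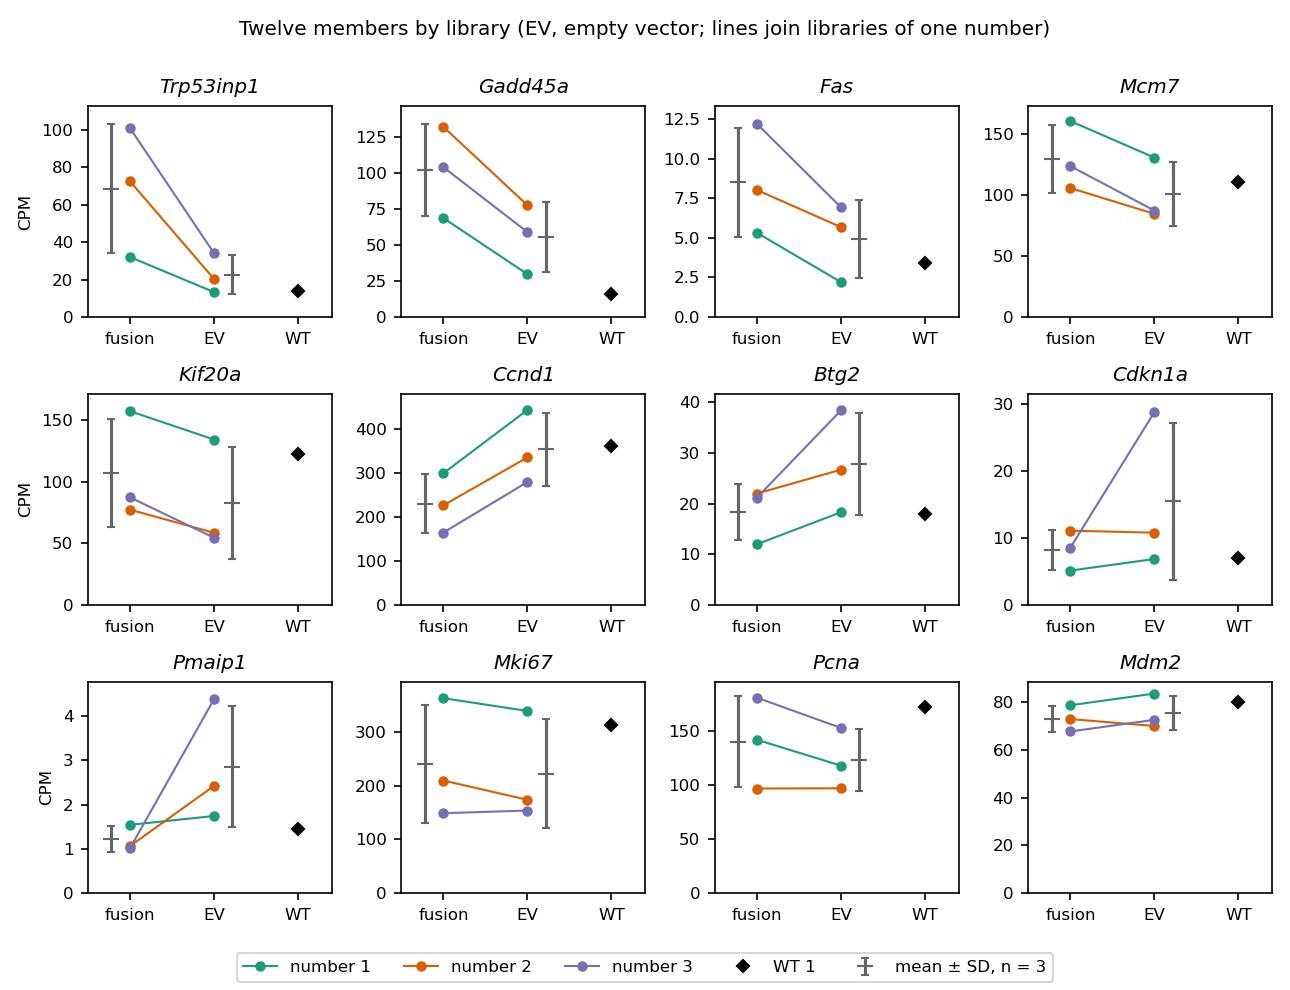
CPM of 12 members by group (fusion, empty vector EV, WT); lines join the fusion and empty vector library of 1 replicate number, and grey bars give the mean ± SD of the fusion and of the empty vector group (n = 3 each), and WT is 1 library. Trp53inp1, Gadd45a and Fas lines run down from fusion to empty vector in all 3 numbers, Ccnd1 and Btg2 lines run up, and Mki67 and Mdm2 lines have mixed slopes.

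Among the cell cycle genes the G1 cyclin stood apart. Ccnd1 (ENSMUSG00000070348.4, chromosome 7:144929931-144939925), which activates CDK4 and CDK6 to phosphorylate RB, lay at 300, 227 and 165 CPM in fusion libraries 1, 2 and 3, at 444, 336 and 280 CPM in empty vector libraries 1, 2 and 3, and at 361 CPM in the WT library. Only fusion library 1 reached the empty vector range. The log2 fold change was -0.62 (SE 0.28, edgeR adjusted p = 0.49), and in the paired fit Ccnd1 fell by 0.63 on the log2 scale (95% interval -0.83 to -0.44, edgeR adjusted p = 0.0061). The cyclin E genes Ccne1 and Ccne2, which act with CDK2, and the transcription factor E2f1 had negative values too, of -0.12, -0.05 and -0.23 in the paired fit, and none of these passed.

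All 9 replication genes had log2 fold changes above 0 (0.05 to 0.37, median 0.22), as did 51.2% of all genes, and 1 of the 9 passed in the paired fit, where 13.1% of all genes passed. Mcm7 (ENSMUSG00000029730.15, chromosome 5:138164583-138172422), a subunit of the replicative MCM helicase, lay at 161, 106 and 124 CPM in fusion libraries 1, 2 and 3, at 131, 84.8 and 87.5 CPM in empty vector libraries 1, 2 and 3, and at 111 CPM in the WT library. The groups overlapped, and the fusion library was the higher within each number. The unpaired value on the log2 scale was 0.37 (SE 0.25, edgeR adjusted p = 0.78), and in the paired fit 0.37 (SE 0.08, 95% interval 0.18 to 0.57, edgeR adjusted p = 0.030).

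The helicase subunits Mcm3 and Mcm4 were close behind in the paired fit (0.36 and 0.35, edgeR adjusted p = 0.062 and 0.065), while Mcm2 had 0.06 (95% interval -0.19 to 0.31). The ribonucleotide reductase subunits Rrm1 and Rrm2, which make deoxyribonucleotides, had 0.31 and 0.33 (edgeR adjusted p = 0.066 and 0.055), and Rrm2 passed with numbers 1 and 2 alone. Thymidylate synthase (Tyms) and thymidine kinase (Tk1) had 0.01 and 0.03. The sliding clamp gene Pcna lay at 142, 96.8 and 181 CPM in fusion libraries 1, 2 and 3, at 118, 97.0 and 153 CPM in empty vector libraries 1, 2 and 3, and at 172 CPM in the WT library, so libraries numbered 2 were the lowest of both groups. The difference, 0.19 on the log2 scale (SE 0.28), did not pass (edgeR adjusted p = 0.96).

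Of the 18 genes of G2 and mitosis, 12 had values above 0 and 6 below, with a median of 0.09. Kif20a, a kinesin of cytokinesis, lay at 157, 77.2 and 87.2 CPM in fusion libraries 1, 2 and 3, at 134, 58.5 and 54.5 CPM in empty vector libraries 1, 2 and 3, and at 122 CPM in the WT library. It rose in the paired fit (log2 fold change 0.43, SE 0.10, edgeR adjusted p = 0.042), while without the block the value was 0.38 (SE 0.41, edgeR adjusted p = 0.92). Mki67, which encodes the proliferation marker Ki-67, lay at 364, 210 and 149 CPM in fusion libraries 1, 2 and 3, at 340, 174 and 154 CPM in empty vector libraries 1, 2 and 3, and at 314 CPM in the WT library. Fusion and empty vector values of the same number were close, and the log2 fold change was 0.12 (SE 0.41, edgeR adjusted p = 0.99), with a paired 95% interval of -0.10 to 0.32.

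The mitotic kinases and checkpoint genes also differed little. In the paired fit Plk1 had 0.31 (edgeR adjusted p = 0.059), Cdc20, an activator of the anaphase-promoting complex, 0.23, Aurka 0.15, Aurkb -0.01, Cdk1 -0.17 and the checkpoint kinase Bub1 -0.20, none of which passed. Over the 35 cell cycle genes the paired 95% interval lay within a 1.5-fold change either way for 32, against 7943 of the 16731 genes tested. The unpaired intervals were wider, and lay within a 2-fold change for 37 of all 54 members, against 9018 of the 16731. Within all 3 numbers the fusion library was the higher for 15 of the 35 (42.9%, against 27.8% of all genes) and the lower for 5 (14.3%, against 24.6% of all genes).

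**Figure D4:**
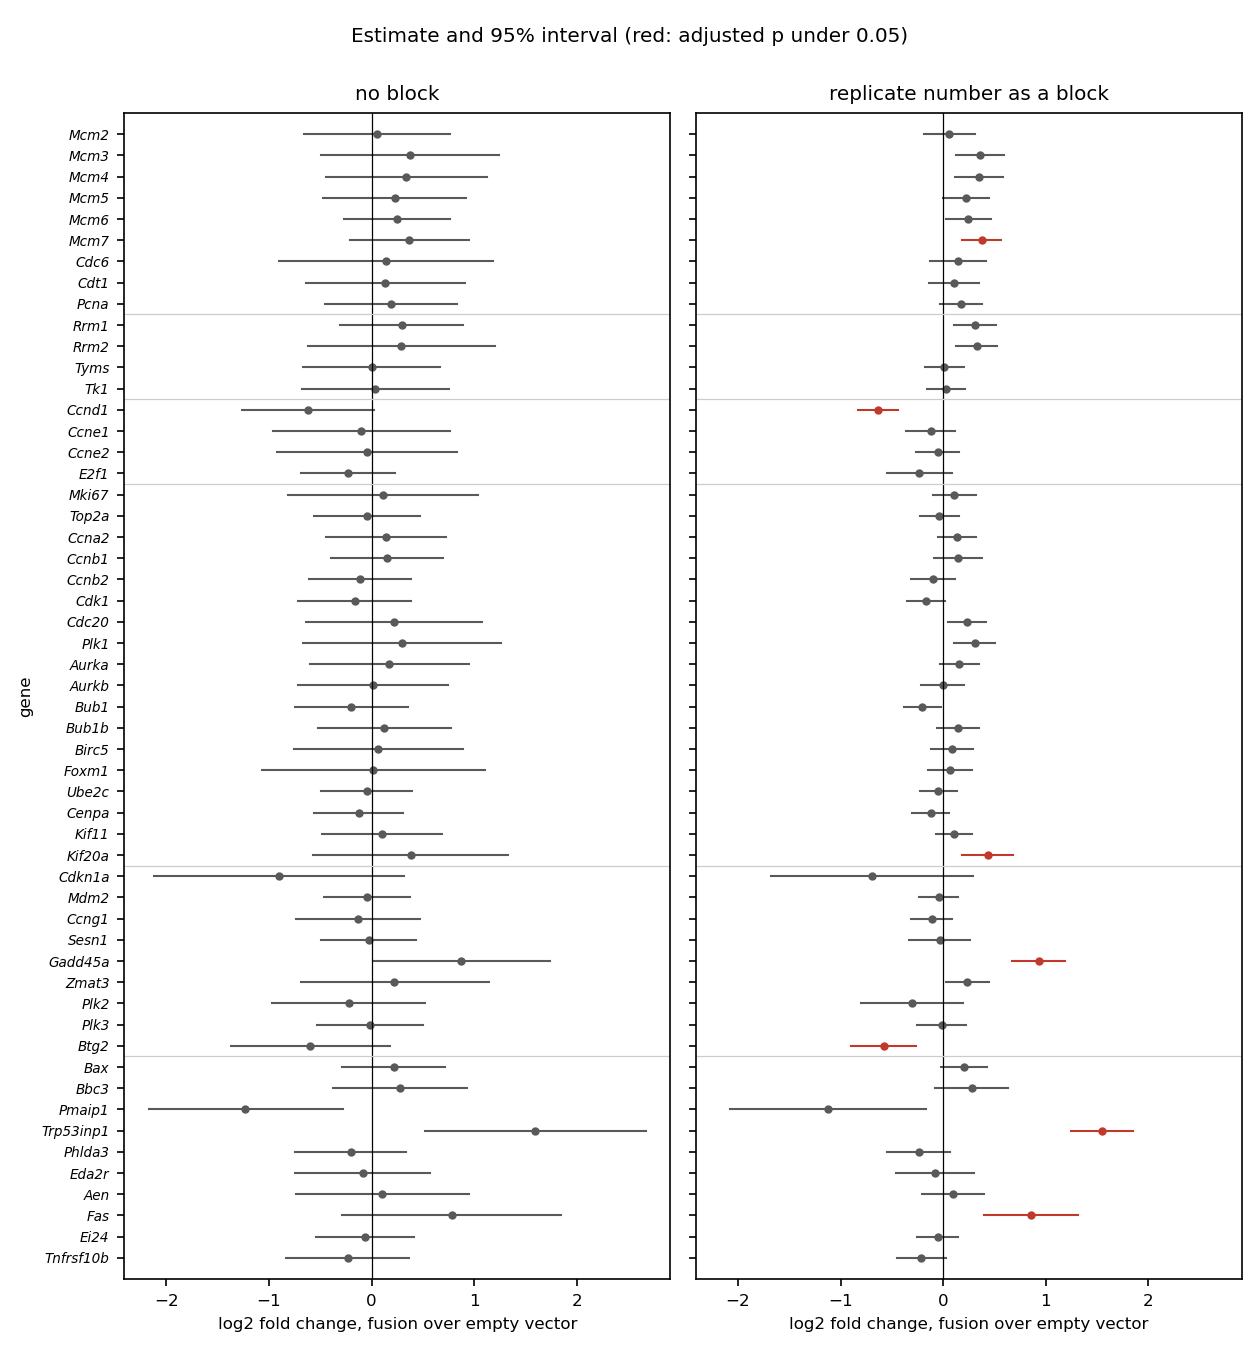
Log2 fold change of fusion over empty vector with its 95% interval for each member (n = 3 libraries a group), in the fit without the replicate block (left) and with it (right); red marks an adjusted p under 0.05. The left panel has no red gene and the right has 7, with intervals that are much narrower at about the same estimates.

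Of the 7 members that passed in the paired fit 4, Gadd45a, Ccnd1, Mcm7 and Kif20a, overlap an exon of a gene on the opposite strand, as do 13 of the 54 members in all. How the counting treated strand was not stated in the sources. Whether reads on such shared stretches were given to 1 gene or set aside as ambiguous thus cannot be told. Without number 1 of both groups the paired fit called 4 of the 54 members (Gadd45a and Trp53inp1 rose, Ccnd1 and Pmaip1 fell), against 8.9% of all genes. Without number 2 it called 2 of the 54 (Gadd45a and Trp53inp1 rose), against 2.52% of all genes. In lanes 5 and 6 alone it called 9 of the 54, against 19.6% of all genes. They were the 7 above with Rrm2, which rose, and Phlda3, an AKT inhibitor, which fell.

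The cell cycle genes also differed between replicate numbers. Number 1 was above number 2 in both groups for 34 of the 35 cell cycle genes, E2f1 being the exception, against 35.3% of all genes, and for 4 of the 19 p53 targets. In an edgeR test of number 1 over number 2 with the group as a block, added after the data were seen, 22 of the 35 cell cycle genes rose and 0 fell, while 7.55% of all genes passed (3.82% rose and 3.73% fell). They included 6 of 9 replication genes, all 4 of nucleotide supply, 2 of 4 of G1 and G1/S and 10 of 18 of G2 and mitosis. The median log2 difference over the 35 was 0.62, with 0.61 in fusion and 0.62 in empty vector libraries taken alone. The medians of fusion over empty vector within numbers 1, 2 and 3 were 0.10, 0.05 and 0.06.

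Named after their values were seen, the following genes showed the size of these differences. Mki67 was 0.88 higher on the log2 scale in number 1 than in number 2 (edgeR adjusted p = 0.025), the licensing factor Cdc6 1.14 (0.025), Kif20a 1.12 (0.025) and Birc5, which encodes survivin, 1.09 (0.024). Among p53 targets Gadd45a fell by 1.16 on the log2 scale in number 1 relative to number 2 (edgeR adjusted p = 0.025), Trp53inp1 by 0.90 (0.030) and Btg2 by 0.71 (0.0496), while Aen, a nuclease, rose by 0.80 (0.036). Numbers 1 and 2 shared lanes 5 and 6, and in these lanes alone 32 of the 35 cell cycle genes rose and 0 fell, while 23.2% of all genes passed (10.8% rose and 12.4% fell). No label says what a number stands for, so what differed between numbers cannot be told from these files. Against number 3, number 1 was the higher in both groups for 26 of the 35, against 37.6% of all genes.

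**Figure D5:**
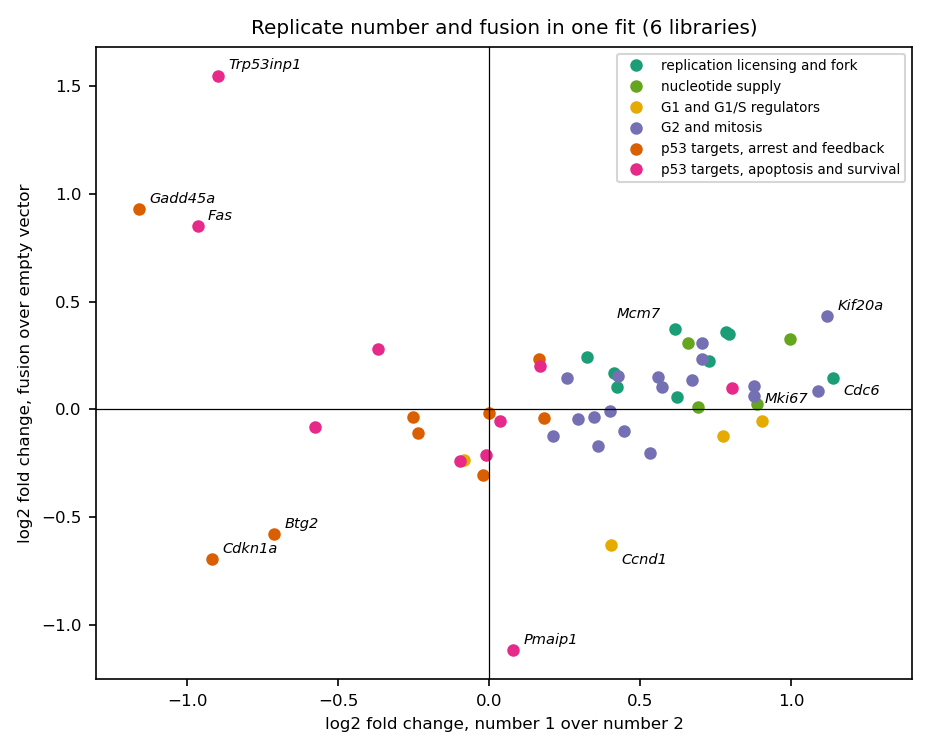
Each point is 1 of the 54 members: log2 fold change of number 1 over number 2 (x axis) and of fusion over empty vector (y axis) from fits with both terms over 6 libraries. The cell cycle lists spread to the right of 0 and stay near 0 on the y axis, Ccnd1 apart, while Trp53inp1, Gadd45a and Fas lie at the upper left.

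The fusion and empty vector libraries were also set against the WT library, which has no replicate. The unpaired fit over all 7 libraries takes the lone WT library to be as variable as the rest. In it none of the 54 members passed in fusion over WT, while 0.436% of all genes did. At an unadjusted p under 0.05 there were 4 members, 7.41% of the 54 against 7.67% of all genes. DESeq2 called 2 of the 54, Gadd45a and Trp53inp1, against 3.04% of all genes. Gadd45a had a log2 fold change of 2.64 over WT (95% interval 1.19 to 4.09, edgeR adjusted p = 0.16; DESeq2 adjusted p = 0.00019) and Trp53inp1 of 2.31 (0.58 to 4.04, edgeR adjusted p = 0.38; DESeq2 adjusted p = 0.017). With the block, which ties the WT library to number 1, 10 of the 54 members passed, against 9.81% of all genes (4.57% rose and 5.25% fell). Cdc20, Cdt1, Gadd45a, Mcm3, Mcm7, Rrm2 and Trp53inp1 rose and Ccng1, Cdk1 and Ei24 fell. An unadjusted p under 0.05 was reached by 30 members with the block, 55.6% of the 54 against 28.5% of all genes. The tie of WT to number 1 cannot be checked, as WT has only that number.

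Ccnd1 in fusion over WT had -0.64 (95% interval -1.51 to 0.23, edgeR adjusted p = 0.86) and Mcm7 0.24 (-0.59 to 1.07, adjusted p = 1; 0.58 and 0.041 with the block). In empty vector over WT 0 members passed with edgeR, with or without the block, or with DESeq2. Without the block 1 member, 1.85% of the 54, had an unadjusted p under 0.05, against 4.46% of all genes. With the block 18 members did, 33.3% of the 54 against 20.2% of all genes. Of all genes 0 passed with edgeR, 0.12% with the block and 0.433% with DESeq2. Gadd45a had 1.77 (95% interval 0.40 to 3.13, edgeR adjusted p = 0.92) and Trp53inp1 0.72 (-0.84 to 2.28, adjusted p = 1) in empty vector over WT. The WT library lay above every fusion library for 12 of the 35 cell cycle genes (22.7% of all genes) and above every empty vector library for 12 as well (22.7%). In the unpaired fit 17 of the 18 genes of G2 and mitosis had values below 0 in fusion over WT (47.3% of all genes did) and 18 in empty vector over WT (48.7%), none of them past the threshold, and both counts share the WT library. This lean was not seen with the block, where 8 of the 18 lay below 0 in each comparison, with medians of 0.15 in fusion over WT and 0.05 in empty vector over WT, and where Cdc20 rose and Cdk1 fell in fusion over WT. The WT library was the highest of the 7 for the mitotic cyclin gene Ccnb2, at 94.7 CPM, against 63.6, 49.1 and 55.0 CPM in fusion and 68.5, 47.6 and 65.0 CPM in empty vector libraries 1, 2 and 3.

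Genes around the members were taken from 5 lists of 136 further cell cycle and p53 genes, of which 133 were tested. With DESeq2 2 rose and 1 fell, all of them further p53 targets, while 5.51% of all genes passed. In the unpaired edgeR fit 1 rose and 0 fell, and with the block 9 rose and 8 fell, 12.8% of the 133 against 13.1% of all genes. The 1 was Ddit4l, an mTOR inhibitor of the REDD family, which lay at 2.06, 2.67 and 4.26 CPM in fusion libraries 1, 2 and 3, at 0.351, 0.304 and 0.217 CPM in empty vector libraries 1, 2 and 3, and at 0.661 CPM in the WT library. All fusion libraries lay above all others (log2 fold change 3.33, SE 0.41, edgeR adjusted p = 0.0062). Trp53 itself, the gene of p53, lay at 43.4, 28.2 and 25.9 CPM in fusion libraries 1, 2 and 3, at 40.3, 24.7 and 23.6 CPM in empty vector libraries 1, 2 and 3, and at 31.1 CPM in the WT library, highest in number 1 of both groups. The fold change of Trp53 was 0.14 on the log2 scale (SE 0.30, edgeR adjusted p = 0.98). Cdkn2a, the locus of p16 and of ARF, an inhibitor of Mdm2, lay between 496 and 674 CPM in the 7 libraries.

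The genes that passed in the paired fit but not in the unpaired edgeR fit were named after their values were seen. Ccnd2, another D-type cyclin, lay at 442, 405 and 362 CPM in fusion libraries 1, 2 and 3, at 732, 612 and 493 CPM in empty vector libraries 1, 2 and 3, and at 689 CPM in the WT library. All fusion libraries lay below all others, and Ccnd2 fell by 0.59 on the log2 scale (edgeR adjusted p = 0.0092; unpaired adjusted p = 0.30). Cdk6, a kinase partner of D cyclins, and Cdc25b, a phosphatase that activates CDK1, fell by 0.40 and 0.37 (edgeR adjusted p = 0.033 and 0.034), and Cdkn2b, which encodes the CDK4 and CDK6 inhibitor p15, rose by 0.48 (0.027). E2f6, a repressor of the E2F family, rose by 0.45 (0.0499).

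The p53 neighbours had both signs as well. Gdf15, a stress cytokine, rose by 1.71 on the log2 scale in the paired fit (edgeR adjusted p = 0.0058), at 3.22, 5.66 and 7.67 CPM in fusion libraries 1, 2 and 3, against 0.769, 2.22 and 2.26 CPM in empty vector libraries 1, 2 and 3. Steap3, a metalloreductase, and Sesn2, a sestrin, fell by 1.15 and 0.77 (edgeR adjusted p = 0.0081 and 0.0075), and Mdm4, an inhibitor of p53, and Polk, a translesion polymerase, fell by 0.39 and 0.54 (0.043 and 0.021). Usp7, which removes ubiquitin from p53 and Mdm2, rose by 0.40 (0.020). Of the replication and mitosis lists, Rpa2, Ndc80, Incenp and Ncapd2 rose and Rpa3 fell in the paired fit.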

How the data were processed

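The authors deposited raw counts of 50 bp single-end reads per gene, in a table for each sequencing lane. STAR, HTSeq and build GRCm38 are named in the submitters' processing notes, while neither versions nor a strand setting are given in the sources used here. Reads with several alignments (36.1 to 45.32% of a library), ambiguous reads (1.222 to 1.479%) and reads outside genes (5.726 to 6.927%) have rows of their own and stayed out of library sizes and tests, so near-identical genes can be undercounted. The 12 lane tables were summed into 7 libraries. Counts of the 2 lanes of 1 library agreed within sampling noise in a chi-square test over genes (p = 0.200 to 0.970).

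Fusion was compared with empty vector by edgeR 4.0.16 (R 4.3.3) in 6 libraries, with TMM factors, filterByExpr at a minimum count of 10, robust quasi-likelihood tests and Benjamini-Hochberg adjustment at 0.05 over 16731 genes. Comparisons with WT used all 7 libraries. CPM use TMM factors over 7 libraries (0.944 to 1.036). Replicate numbers 1, 2 and 3 recur in both groups. Deviations from the group means correlated over genes for libraries with equal numbers (r = 0.659, 0.63 and 0.61 for numbers 1, 2 and 3). For unequal numbers r was -0.53 to -0.0474, but deviations cancel out within a group, so these values largely follow from the others. The numbers were taken to pair the samples on the equal-number values. The pairing comes from this check, as no label says what a number marks, and the fit with a replicate block is an alternative to the unpaired main fit. DESeq2 1.42.0, other normalization and filters and left-out libraries were further alternatives. Fits were tested on simulated data. Gene positions and overlaps come from GENCODE M21 (GRCm38).

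Members and lists were chosen with earlier results of these data known. Values in every library are given for members past an adjusted p of 0.05 in fusion over empty vector with or without the block, and for Mki67, Pcna, Ccnd1, Cdkn1a, Mdm2 and Trp53; other genes were named after their values were seen, as were further pathway genes beyond those past in the main fit. Reads carry no molecular identifiers, so floors cover counting error only. The level of 1 luminal marker is not reported here.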

Additional observations from a re-analysis of the deposited data

How the results depend on the processing

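The unpaired fusion over empty vector fit called 341 genes. The replicate block gave 2196, DESeq2 922, no filter on low counts 530, the block in lanes 5 and 6 alone 3276 and the block without number 1 or without number 2 of both groups, both added after the data were seen, 1489 and 421. Leaving out 1 library gave 139 to 373. Cell cycle members called numbered 0 in the unpaired fit, 3 with the block, 4 with the block in lanes 5 and 6 and 1 with the block without number 1. The p53 target members called numbered 0, 4, 5 and 3 in these fits, 1 with DESeq2 and 2 with the block without number 2 of both groups. Without 1 library in turn both counts stayed at 0 in the unpaired fit.

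Fusion over WT called 73 genes, 1642 with the block, 499 with DESeq2, 245 without a filter and 1 to 84 without 1 library. Its cell cycle members called were 0, and 6 with the block; its p53 target members were 0, 4 with the block, 2 with DESeq2 and 1 (Gadd45a) without a filter, and 0 for both without 1 library. Empty vector over WT called 0 genes with edgeR (746 at an unadjusted p under 0.05), 20 with the block, 71 with DESeq2 and 15 without a filter, and 0 without 1 library. The test of number 1 over number 2 called 1263 genes, and 3879 in lanes 5 and 6 alone, with 4 and 7 p53 targets.

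Small fold changes of fusion over empty vector changed sign when 1 library was left out. Kif20a ranged from -0.0054 (without fusion replicate 1) to 0.925, Mki67 from -0.31 (without fusion replicate 1) to 0.55, Pcna from -0.038 (without fusion replicate 3) to 0.40, Mdm2 from -0.10 to 0.033 (without empty vector replicate 1) and Trp53 from -0.13 (without fusion replicate 1) to 0.425, each highest without empty vector replicate 1 except Pcna, which was highest without fusion replicate 2. Mdm2 was 0.00015 with the block in lanes 5 and 6. Trp53inp1 in empty vector over WT was -0.18 with the block. The cause was not tested. The block changed no other call among named members than those given in the report. Total counts set the depth, and at 3 counts the limit in a library lies at 0.0503 to 0.114 CPM, below every member's level.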
